A study of Mus musculus with 2 samples.

Results

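The cytotoxic granule genes described here are 9 of the 32285 genes listed for each library, taken from a list of symbols: Gzma, Gzmb, Gzmk and Gzmm, Prf1, Nkg7, Ctsw, Serpinb9 and Srgn. They were measured by droplet single-cell RNA sequencing of popliteal lymph nodes (PLNs), the nodes that drain the knee and ankle, from male TNF-Tg mice on the C57BL/6 background, which carry 1 copy of a human TNF transgene and develop inflammatory-erosive arthritis. The Advanced library came from mice older than 8 months, and the Early library from mice of 5 to 6 months. Each library pooled 6 PLNs of 3 mice, digested with Accumax and sorted for live nucleated cells (Hoechst positive, Sytox Green negative), so each stage is 1 sample, and no wild-type library was analysed here. Stage therefore cannot be told apart from age, from library or from pool, and no test between stages was possible.

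Cytotoxic lymphocytes kill by releasing preformed granules. Granzymes are the serine proteases of these granules, perforin (Prf1) opens the target membrane to them, and Nkg7 is a granule membrane protein needed for release. Cathepsin W (Ctsw) is a cysteine protease of CD8 T and NK cells, Serpinb9 is the inhibitor that protects cells from granzyme B, and serglycin (Srgn) is the proteoglycan on which granule proteins are packed, in many haematopoietic cells besides killers.

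In the GRCm38 annotation Gzma (13:113093825-113100981) and Gzmk (13:113171608-113225908) lie close together on the minus strand, and the annotated span of Gzmk encloses Esm1, which lies on the plus strand. The other granzymes are Gzmb (14:56258838-56262260, minus strand) and Gzmm (10:79689020-79695261, plus strand). Prf1 (10:61297833-61304680) and Nkg7 (7:43437073-43438249) are on the plus strand. Ctsw (19:5465043-5468507, minus strand) overlaps its neighbour Fibp, on the other strand, by 9 bases. Serpinb9 is at 13:33003250-33017957 on the plus strand and Srgn at 10:62493833-62527451 on the minus strand.

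RefSeq promoter windows (GRCm38.p6, 250 bases before to 50 after the start) were at hand for 8 of the 9 genes, in 10 windows, and Ctsw had no entry. Because Runx3, Tbx21 and Eomes are known regulators of killer genes, the windows were searched on both strands for the Runx letters TGTGGT, the T-box letters TCACACC and, for Ets factors, ACAGGAAGT. The 4 windows below, for 2 granzymes, perforin and Nkg7, are shown 5′ to 3′ on the gene's strand with Runx and T-box matches on either strand in capitals. They are chr13:113100932-113101231 and chr14:56262285-56262584 on the minus strand, and chr10:61297586-61297885 and chr7:43436888-43437187 on the plus strand.
Gzma: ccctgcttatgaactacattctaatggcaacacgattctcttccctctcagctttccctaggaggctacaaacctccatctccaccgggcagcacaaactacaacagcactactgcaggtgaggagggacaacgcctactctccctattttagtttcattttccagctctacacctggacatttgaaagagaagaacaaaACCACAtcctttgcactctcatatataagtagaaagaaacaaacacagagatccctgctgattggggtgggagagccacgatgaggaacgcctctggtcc
Gzmb: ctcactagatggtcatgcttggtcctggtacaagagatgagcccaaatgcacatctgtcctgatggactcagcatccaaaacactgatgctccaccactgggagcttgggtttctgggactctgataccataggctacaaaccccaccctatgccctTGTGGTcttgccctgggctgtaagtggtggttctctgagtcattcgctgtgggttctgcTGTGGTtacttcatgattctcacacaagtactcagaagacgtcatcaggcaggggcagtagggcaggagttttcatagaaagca
Prf1: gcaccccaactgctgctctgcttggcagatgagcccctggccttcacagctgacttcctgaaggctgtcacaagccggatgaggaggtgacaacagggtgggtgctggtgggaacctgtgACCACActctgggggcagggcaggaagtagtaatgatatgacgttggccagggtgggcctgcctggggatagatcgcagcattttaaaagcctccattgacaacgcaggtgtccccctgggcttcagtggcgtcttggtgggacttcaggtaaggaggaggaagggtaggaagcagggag
Nkg7: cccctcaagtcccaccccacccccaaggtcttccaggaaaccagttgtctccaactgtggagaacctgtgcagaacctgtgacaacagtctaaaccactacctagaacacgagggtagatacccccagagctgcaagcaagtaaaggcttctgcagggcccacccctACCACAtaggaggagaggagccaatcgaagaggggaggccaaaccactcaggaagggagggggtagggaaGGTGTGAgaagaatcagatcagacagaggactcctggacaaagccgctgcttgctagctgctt
The Runx letters stood in 7 of the 10 windows, against 16.8% of all 32851 promoter windows. By gene they stood in at least 1 window of 7 of the 8, the exception being Gzmk. The T-box letters stood in 3 of the 10 windows, those of Gzmk, 1 of Gzmm and Nkg7, against 3.98% of all windows. The Ets letters were in none of the 10 windows, against 1.03% of all. A match is a description of letters, not a binding site.

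The Advanced library held 8183 cells with at least 200 genes and the Early library 8221, with median totals of 7837 and 6643 UMIs per cell. The libraries shared 20 barcodes, and none of the cells with these barcodes held a Gzma, Gzmb or Gzmk UMI. Cells were put in 20 gates by raw UMIs of marker genes, none of which is one of the 9 genes. The 9 T gates together held 1171 Advanced and 174 Early cells, or 14.3% and 2.12% of each library. The T gates with killer-cell markers were T cells with NK lectin receptor UMIs (NK-lectin T; 481 and 33 cells), CD8 memory-gene T (55 and 5) and other CD8 T cells (86 and 9). Among NK-lectin T cells, Cd3e was detected in 98.3% and 97.0% and Cd8b1 in 87.7% and 75.8%. Ncr1, a defining NK receptor, was in 0.208% and 0%, and Klrb1c, another NK receptor, in 9.36% and 15.2%. The NK-gene gate, with NK lectin receptors and at most 1 CD3 UMI, held 26 Advanced and 12 Early cells, of which 17 and 6 had Ncr1. The precursor-gene T gate (58 and 17 cells) was set by Dntt and Rag1, genes of lymphocytes that rearrange antigen receptors. Mixed cells, with UMIs of 2 lineages (258 and 58), were kept apart and no doublet caller was run.

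Levels are given in CPM, the UMIs of a gene in 1e6 UMIs of all genes in the same cells, followed by their exact Poisson interval at 95%. A ratio divides the Advanced by the Early level, and its interval is the exact conditional one. Intervals cover counting error only, and since UMIs of 1 cell are not independent they are too narrow wherever a few cells hold a gene. The 3′ UMI levels are compared within a gene and not between genes. A gene is called higher or lower in Advanced only where the interval of its ratio lies wholly above 2 or below 0.5.

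Over all cells, 4 of the 9 genes were higher in the Advanced library: Gzmm (10.1-fold, 7.34 to 14.1), Nkg7 (7.22-fold, 6.71 to 7.77), Ctsw (7.11-fold, 6.27 to 8.08) and Gzmk (4.23-fold, 2.13 to 9.33). Only Gzmb was lower, at 0.277-fold (0.206 to 0.368), and it lost the call without cells above 3 times the median UMIs (0.381-fold, 0.267 to 0.537). Over all genes without a minimum level, 3.17% of 22032 were called higher and 0.209% lower. Of the 7281 genes at 10 CPM or more in 1 library, which include 4 of the 9, 1.65% were called higher and 0.137% lower. The median log2 ratio of the 9 genes was 1.03, against 0.14 for all genes without a minimum level. Prf1 (2.04-fold, 1.76 to 2.36), Serpinb9 (1.58-fold, 1.39 to 1.80), Gzma (1.14-fold, 1.04 to 1.25) and Srgn (0.924-fold, 0.912 to 0.937) were not called, but Gzma was at 4.68-fold (3.82 to 5.79) without cells above 3 times the median UMIs.

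Since T cells were 14.3% of Advanced and 2.12% of Early cells, the same ratios were taken within the T gates together, per UMI of T cells. There Gzmm (11.7-fold, 5.63 to 29.3), Nkg7 (2.55-fold, 2.31 to 2.83) and Ctsw (2.65-fold, 2.21 to 3.21) were higher in Advanced T cells, and Gzmb was lower (0.196-fold, 0.133 to 0.290). Without cells above 3 times the median UMIs only the Gzmm call was kept, with Nkg7 at 1.90-fold (1.68 to 2.16) and Ctsw at 1.91-fold (1.54 to 2.40). With no minimum, 0.355% of 17451 genes were called higher in T cells and 1.76% lower, and at 10 CPM or more, where 8 of the 9 genes stand, 0.523% and 3.22% of 7458. Prf1 was at 2.59-fold (1.71 to 4.09) and Gzmk at 1.05-fold (0.462 to 2.78), and Gzma, Serpinb9 and Srgn were at 0.570, 0.588 and 0.667-fold. The Gzma ratio turned to 3.58 without cells above 3 times the median UMIs. The median log2 ratio of the 9 in T cells was 0.07, against -0.05 for all genes without a minimum level. At 10 CPM or more it was 0.38 for the 8 genes that stand there, against -0.22 for all 7458. NK-lectin T cells were 481 of the 1171 Advanced and 33 of the 174 Early T cells, so levels are given gate by gate.

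**Figure D1:**
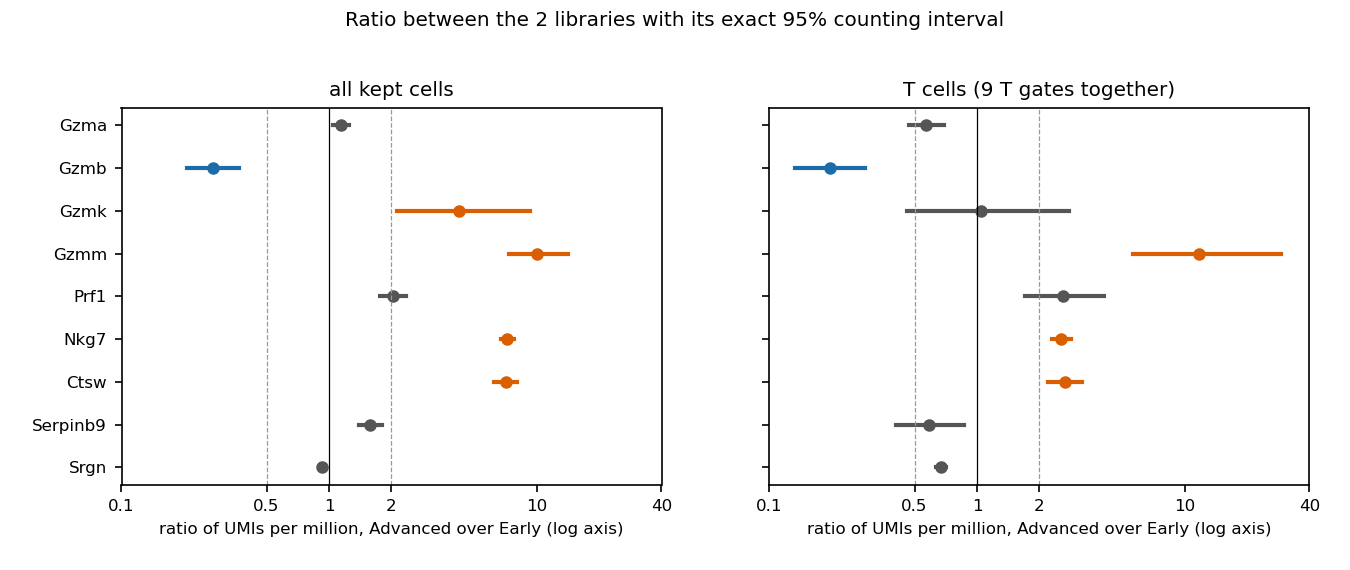
Ratio of Advanced to Early level for each of the 9 genes (log axis), over all cells and over the T gates together, with exact 95% intervals for counting error and lines at 2-fold and 0.5-fold. Gzmm, Nkg7 and Ctsw lie wholly above 2-fold on both, and Gzmb wholly below 0.5-fold on both.

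**Figure D2:**
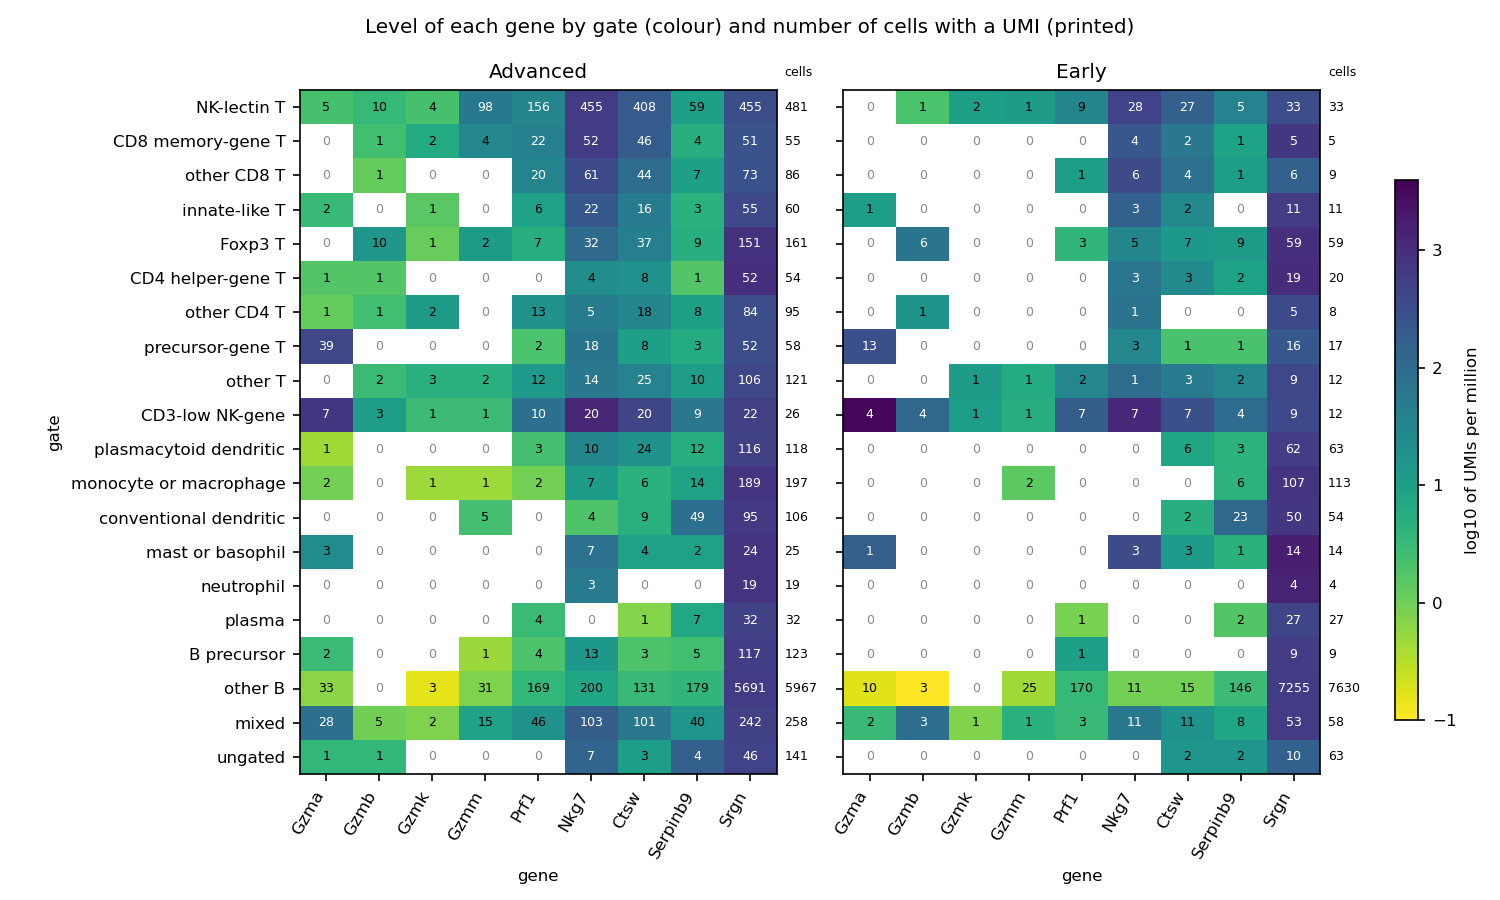
Level of each gene (columns; colour is log10 of CPM) in each of the 20 gates (rows), Advanced left of Early, with the number of cells with a UMI printed in each field and the cells of the gate at the right. Gzma is high in the NK-gene and precursor-gene T gates, Gzmm in NK-lectin and CD8 memory-gene T cells of the Advanced library, Serpinb9 in conventional dendritic cells, and Srgn in every gate of both libraries.

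Gzma encodes a tryptase-like granzyme. It was at 701 CPM (617 to 793) in Advanced NK-gene cells and 3372 CPM (3114 to 3646) in Early ones, the highest level of any gate in both libraries. The UMIs lay in 7 of 26 Advanced cells, with 95, 80, 25, 24, 19, 6 and 4 UMIs, and in 4 of 12 Early cells, with 277, 259, 92 and 1. A ratio of 0.208 (0.179 to 0.241) thus rests on 3 Early cells. It was 0.914 without cells above 3 times the library's median UMIs.

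Of the 1154 Advanced Gzma UMIs, 253 lay in NK-gene, 410 in precursor-gene T and 419 (36.3%) in mixed cells, and of 824 Early UMIs 629, 143 and 4 did. Precursor-gene T cells were at 407 CPM (369 to 448) in 39 of 58 Advanced cells and 299 CPM (252 to 352) in 13 of 17 Early cells, a ratio of 1.36 (1.12 to 1.66). The highest cells held 153 and 57 UMIs in Advanced and 52 and 30 in Early. In Advanced precursor-gene cells with Trdc, the constant region of the delta receptor chain, 28 of 34 had Gzma (433 CPM, 390 to 479), and in those without Trdc 11 of 24 (253 CPM, 178 to 349). The cells with Trdc were also deeper, at a median of 23546 UMIs against 5223, and the split was chosen after values were seen. Of the 39 Advanced precursor-gene cells with Gzma, 2 had a Prf1 UMI and none had Gzmb or Gzmm.

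In T cells with mature subset markers Gzma was nearly absent. NK-lectin T cells held 15 Gzma UMIs in 5 of 481 Advanced cells, 9 of them in 1 cell, and none in 33 Early cells. Taking 3 counts as the limit that a count of 0 allows, the share of Early cells with a UMI could be up to 9.09%. Foxp3 T cells, the regulatory lineage, had none in 161 Advanced cells (a share of cells with a UMI of up to 1.86% by the same limit) or in 59 Early cells (up to 5.08%). By marker genes regardless of gate (a cut made after values were seen), cells with 2 or more Dntt and Rag1 UMIs held 45.1% of Advanced and 22.2% of Early Gzma UMIs, and cells with 10 or more NK lectin and at most 5 CD3 UMIs held 49.9% and 76.3%. The Advanced library's highest Gzma cell, with 156 UMIs, was among the mixed cells. It carried 104 NK lectin, 5 mast-cell, 3 CD3 and 2 B-cell UMIs. NK lectins counted towards the NK-gene gate only in cells with at most 1 CD3 UMI. This cell is thus not in the Gzma level of NK-gene cells.

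Over the T gates together Gzma was at 30.2 CPM in Advanced and 52.9 CPM in Early cells (0.570-fold, 0.471 to 0.693). Precursor-gene cells were 58 of 1171 Advanced and 17 of 174 Early T cells. Other B cells, which should lack the gene, held 33 Advanced and 10 Early UMIs, each alone in its cell.

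Gzmb, the granzyme that cleaves after aspartate and triggers caspases, had its highest Advanced level in Foxp3 T cells. It was at 14.6 CPM (9.44 to 21.5) in 10 of 161 Advanced Foxp3 T cells and 66.6 CPM (49.9 to 87.1) in 6 of 59 Early ones, a ratio of 0.219 (0.130 to 0.359). The highest Advanced cell held 8 UMIs, and the 2 highest Early cells 35 and 10. The ratio was 0.404 (0.195 to 0.830) without the leading cell of each library, and 0.667 (0.261 to 1.84) without cells above 3 times the median UMIs, so the lower call in Foxp3 T cells rests on few Early cells. The Early cell with 35 Gzmb UMIs was large and cycling, with 66133 UMIs in all and 133 UMIs of Mki67, Top2a and Birc5.

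Another 114 Early Gzmb UMIs lay in 3 mixed cells, with 57, 40 and 17, against 5 UMIs in 5 Advanced mixed cells. These 3 cells carried Foxp3 as well as B and T marker UMIs. Any cell with a Foxp3 UMI counted, 39.4% of Advanced and 86.1% of Early Gzmb UMIs were in Foxp3 cells (26 UMIs in 11 of 235 cells and 167 UMIs in 9 of 76). NK-lectin T cells held 22 UMIs in 10 of 481 Advanced cells and 1 UMI in 33 Early cells. NK-gene cells held 4 UMIs in 3 Advanced cells (11.1 CPM, 3.02 to 28.4, an interval that overlaps that of Foxp3 T cells) and 22 in 4 Early cells (118 CPM, 73.9 to 179), 19 of them in 1 cell. No Gzmb UMI was found in 5967 Advanced other B cells and 3 in 7630 Early ones. Over the T gates Gzmb was 0.452-fold without the leading cell and 0.512-fold without cells above 3 times the median UMIs, and neither interval lay wholly below 0.5.

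Gzmk, a tryptase of memory CD8 T cells in mouse, had 52 UMIs in 20 Advanced cells and 10 UMIs in 5 Early cells. Other CD4 T cells had the highest Advanced level, 12.3 CPM (5.89 to 22.6), from 2 of 95 cells with 7 and 3 UMIs. CD8 memory-gene T cells held 5 UMIs in 2 of 55 Advanced cells. In NK-lectin T cells there were 15 UMIs in 4 of 481 Advanced cells and 5 UMIs in 2 of 33 Early cells. Within the T gates together it was at 2.67 CPM in Advanced and 2.56 CPM in Early, unlike its level over all cells. The call over all cells was lost with TMM factors, where the ratio was 3.92 (1.97 to 8.64).

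Gzmm, a granzyme that cleaves after methionine or leucine, lay mainly in NK-lectin T cells of the Advanced library. It stood at 55.3 CPM (49.8 to 61.2) in Advanced NK-lectin T cells, with 375 UMIs in 98 of 481 cells, and at 12.1 CPM (4.44 to 26.3) in Early ones, where all 6 UMIs were in 1 of 33 cells. The ratio was 4.57 (2.08 to 12.5), but 2.32 (1.31 to 4.52) with mixed cells returned to their gates and 3.01 (1.37 to 8.25) without cells above 3 times the median UMIs, so that its call was lost under both. The Advanced UMIs were spread, with 17 in the highest cell and 50% of them in 19 cells. CD8 memory-gene T cells followed, at 29.8 CPM (19.1 to 44.3) in 4 of 55 Advanced cells. The level was lower than in NK-lectin T cells beyond counting error but rests on those 4 cells.

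NK-gene cells had 1 Gzmm UMI in each library. Foxp3 T cells had 21 UMIs in 2 Advanced cells, with 15 and 6, and none in Early cells. Of all Gzmm UMIs, 72.1% in Advanced and 14.3% in Early lay in NK-lectin T cells, and 61.9% of the Early ones were in other B cells, at 26 UMIs in 25 of 7630 cells, against 40 in 31 of 5967 Advanced B cells. Since the Early T gates held only 7 Gzmm UMIs in 2 cells, the T-cell ratio is poorly determined above its lower bound of 5.63.

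**Figure D3:**
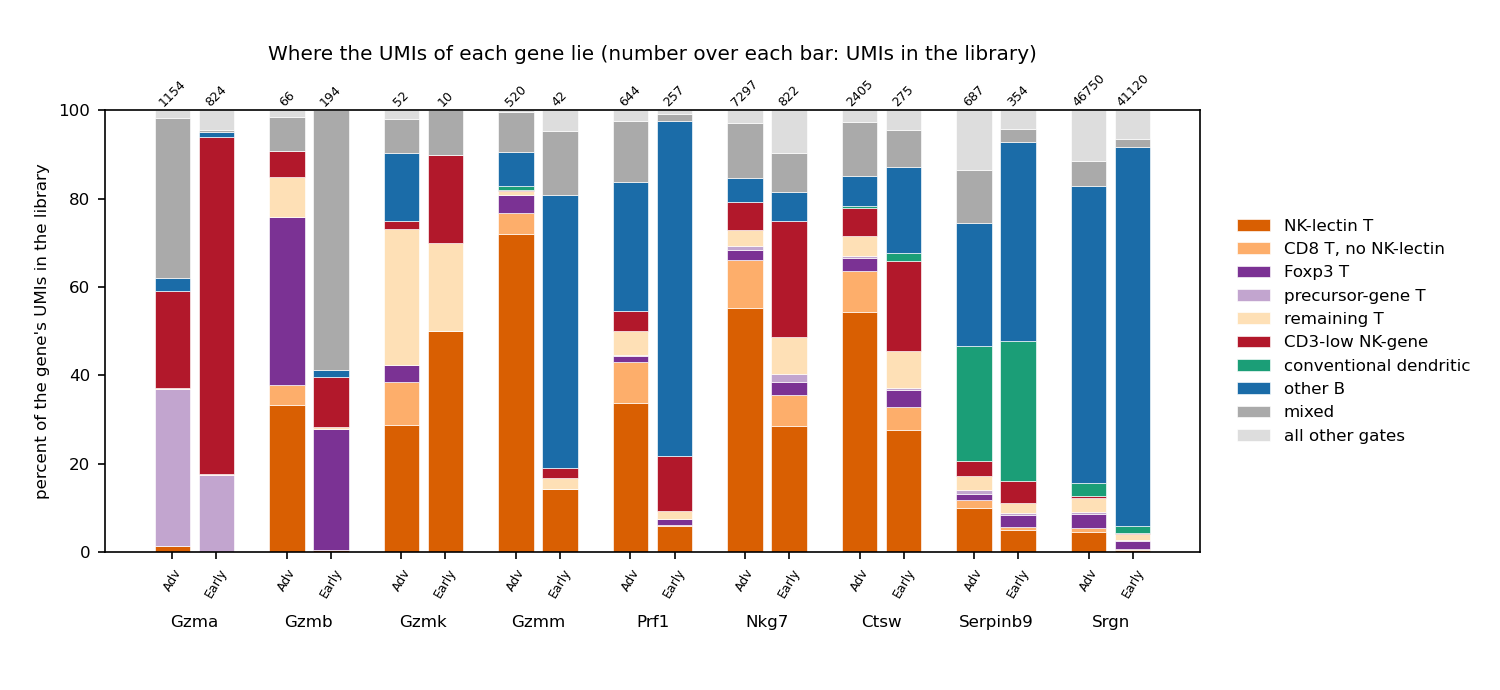
Share of each gene's UMIs (percent of that gene's UMIs in the library, printed over each bar) lying in each group of gates, Advanced left of Early for each gene. Gzmm lies in NK-lectin T cells at 72.1% in Advanced and 14.3% in Early, Gzmb lies in Foxp3 T and mixed cells in Early, and Srgn lies mostly in B cells in both.

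Prf1, the pore-forming protein, was detected in 476 Advanced and 197 Early cells, at 1 or a few UMIs a cell. NK-gene cells held the highest level, 83.1 CPM (56.1 to 119) in 10 of 26 Advanced cells and 172 CPM (117 to 242) in 7 of 12 Early cells, a ratio of 0.484 (0.284 to 0.823). In Advanced T cells it was at 39.7 CPM (27.2 to 56.1) in CD8 memory-gene, 33.9 CPM (22.5 to 49.0) in other CD8 and 32.0 CPM (27.9 to 36.5) in NK-lectin T cells, which do not differ beyond counting error. NK-lectin T cells had 217 UMIs in 156 of 481 Advanced cells and 15 UMIs in 9 of 33 Early cells, at 32.0 and 30.2 CPM, and the ratio was 1.06 (0.627 to 1.92).

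Other B cells had a low Prf1 level of 3.59 CPM (3.09 to 4.14) in Advanced and 3.34 CPM (2.89 to 3.84) in Early, and the ratio was 1.07 (0.874 to 1.32). A Prf1 UMI was in 32.4% of Advanced and 27.3% of Early NK-lectin T cells, at median depths of 13112 and 12075 UMIs, and in 2.83% and 2.23% of other B cells, at 7404 and 6572 UMIs. With each cell thinned to 1000 UMIs, Prf1 was in 3.53% (2.07 to 5.60) of Advanced and 0% (0 to 10.6) of Early NK-lectin T cells, and in 0.270% and 0.408% of other B cells. Per Nkg7 UMI there were 0.0606 Prf1 UMIs (0.0540 to 0.0678) in Advanced and 0.0599 (0.0379 to 0.0903) in Early T cells, and 0.468 (0.391 to 0.557) and 3.68 (2.70 to 5.08) in other B cells, so the 2 genes were not in 1 ratio in both cell types. In other B cells with no CD3, NK lectin or memory-gene UMI, Prf1 was found in 2.44% of 4099 Advanced and 2.21% of 7228 Early cells. The part of free T-cell RNA in the Prf1 UMIs of other B cells was not tested.

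Nkg7 was detected in most cells of the killer-type gates. NK-gene cells had 1285 CPM (1171 to 1408) in Advanced and 1158 CPM (1009 to 1323) in Early, with UMIs in 20 of 26 and 7 of 12 cells and a ratio of 1.11 (0.943 to 1.31). NK-lectin T cells had 595 CPM (577 to 614) in 455 of 481 Advanced cells and 474 CPM (415 to 538) in 28 of 33 Early cells, a ratio of 1.26 (1.10 to 1.44). Advanced CD8 memory-gene T cells, at 605 CPM (552 to 661) in 52 of 55 cells, did not differ from NK-lectin T cells beyond counting error. Other CD8 T cells were at 363 CPM (323 to 407) in Advanced and 339 CPM in 9 Early cells.

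Foxp3 T cells had 102 CPM (87.0 to 118) in 32 of 161 Advanced cells and 31.4 CPM (20.3 to 46.3) in 5 of 59 Early cells, and were higher in Advanced by the rule (3.23-fold, 2.12 to 5.13). In the same gate Klrd1 had 53 UMIs in 14 Advanced cells and none in Early cells, Cd8a 32 UMIs in 7 Advanced cells and 1 in Early, and Trdc 17 UMIs in 2 Advanced cells and none in Early. Their part in the Nkg7 and Ctsw values of Foxp3 T cells was not tested. CD4 helper-gene T cells had 13 UMIs in 4 of 54 Advanced cells, 9 of them in 1, and 22 in 3 of 20 Early cells, 20 of them in 1. Plasmacytoid dendritic cells, the type I interferon producers, had 68 Nkg7 UMIs in 10 of 118 Advanced cells, with 22 and 15 in the highest, and none in 63 Early cells (a share of cells with a UMI of up to 4.76% by the limit of 3 counts). Cd3e was also found there only in Advanced cells, at 37 UMIs in 10 of 118 cells. Klrb1c and Ncr1 had 7 and 6 UMIs in 1 Advanced cell each, and none of these markers was found in 63 Early cells. Klra7, at 22 UMIs, was likewise found only in Advanced cells. Klrd1 and Klre1 were found in both libraries, at 823 and 12 Advanced and 275 and 4 Early UMIs. The part of these markers in the Nkg7 UMIs was not tested. Most NK lectin UMIs of plasmacytoid dendritic cells were thus of 1 gene, Klrd1, at 93.7% and 98.6%.

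Other B cells had 402 Nkg7 UMIs in 200 of 5967 Advanced cells and 53 in 11 of 7630 Early cells, 42 of these in 1 cell, and the ratio was 8.45 (6.33 to 11.5). That Early cell was cycling and carried 62 B-cell and 27 NK lectin UMIs, 36 Ctsw and 96 Gzmc UMIs. Without the leading cells the ratio was 38.2. T cells were 14.3% of Advanced and 2.12% of Early cells, and in other B cells with no CD3, NK lectin or memory-gene UMI, Nkg7 was in 119 of 4099 Advanced and 9 of 7228 Early cells. The part of free T-cell RNA in these B-cell values was not tested. Thinned to 1000 UMIs, Nkg7 was in 38.7% (34.3 to 43.2) of Advanced and 24.2% (11.1 to 42.3) of Early NK-lectin T cells, and in 0.592% and 0.0132% of other B cells.

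**Figure D4:**
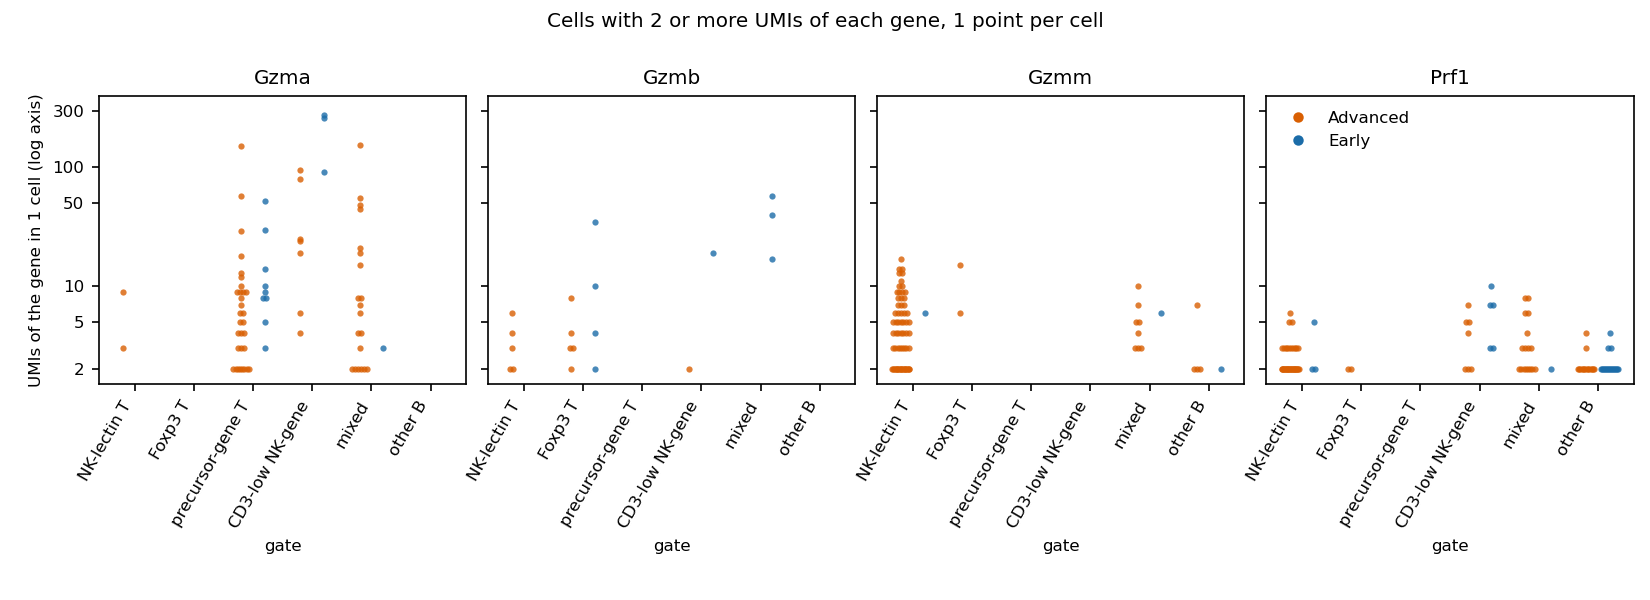
UMIs per cell of Gzma, Gzmb, Gzmm and Prf1 in 6 gates (each point is 1 cell with 2 or more UMIs of the gene, log axis), Advanced left of Early. Gzmm is spread over many Advanced NK-lectin T cells with up to 17 UMIs each, while Gzma in NK-gene cells stands in 7 Advanced cells of up to 95 UMIs and 3 Early cells of 92 or more.

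The order of Ctsw levels was close to that of Nkg7. It was at 427 CPM (362 to 500) in 20 of 26 Advanced NK-gene cells and 300 CPM (227 to 390) in 7 of 12 Early ones, a ratio of 1.42 (1.04 to 1.97). Of the 154 Advanced UMIs, 47 were in 1 cell, and the ratio ranged from 0.924 to 1.53 over the main and alternative runs. NK-lectin T cells had 193 CPM (183 to 204) in 408 of 481 Advanced cells and 153 CPM (121 to 192) in 27 of 33 Early cells, a ratio of 1.26 (0.999 to 1.61). Advanced CD8 memory-gene T cells, at 181 CPM (153 to 213), overlapped NK-lectin T cells, and other CD8 T cells were lower, at 93.2 CPM (73.5 to 116). In Foxp3 T cells Ctsw was at 42.0 CPM in 37 of 161 Advanced cells and 13.8 CPM in 7 of 59 Early cells (3.04-fold, 1.60 to 6.36). Plasmacytoid dendritic cells had 17.5 CPM (12.4 to 23.9) in 24 of 118 Advanced cells and 7.48 CPM (3.01 to 15.4) in 6 of 63 Early cells. Of the 455 Advanced NK-lectin T cells with Nkg7, 87.0% had Ctsw, and of the 26 without it 12 did.

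The ratios over the T gates together, 2.55 for Nkg7 and 2.65 for Ctsw, were thus above the 1.26 of both genes within NK-lectin T cells. Among the 10 gates with 20 or more cells in both libraries, the Advanced gate levels were weighted by the Early gates' shares of UMIs. This gave a Nkg7 ratio of 2.76, against 12.2 at the Advanced library's own shares. These gates hold 49.6% of Early Nkg7 and 68.0% of Early Ctsw UMIs, since gates with under 20 Early cells do not enter. Of the gates left out, NK-gene cells held 26.3% of Early Nkg7 and 20.4% of Early Ctsw UMIs. Mast or basophil cells (9.61% and 1.09%), other CD8 T (3.77% and 2.55%) and CD8 memory-gene T cells (3.16% and 2.55%) were also left out. The same step gave 2.26 against 9.01 for Ctsw, 2.42 against 10.8 for Gzmm, 1.19 against 2.08 for Prf1 and 0.0910 against 0.278 for Gzmb. This is arithmetic on gate shares, and these gates hold 1.70% of Early Gzma UMIs, so that no value is given for Gzma. The 10 gates include other B, mixed and ungated cells, and other B cells held 86.3% of all Early UMIs. Nkg7 was at 0.908 CPM in Early and 7.67 CPM in Advanced other B cells, and at 55.3 and 175 CPM in mixed cells. The ratios at Early shares therefore do not describe the killer-type gates alone.

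Serpinb9 was high in conventional dendritic and NK-gene cells, whose intervals overlapped in both libraries. Conventional dendritic cells had 84.2 CPM (72.3 to 97.5) in 49 of 106 Advanced cells and 115 CPM (94.9 to 139) in 23 of 54 Early cells, a ratio of 0.731 (0.574 to 0.934). The highest Advanced cell held 13 UMIs and the highest Early cells 44 and 19, and without the leading cells the ratio was 1.09. Within this gate, cells with 2 or more UMIs of Fscn1 or Ccl22, genes of migratory dendritic cells, were at 114 CPM (96.9 to 132) against 22.0 CPM (12.3 to 36.3) in the other Advanced cells. In Early cells the values were 207 CPM (169 to 252) with and 24.5 CPM (12.7 to 42.8) without these UMIs. The split was chosen after values were seen.

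NK-gene cells had 60.9 CPM (38.2 to 92.3) of Serpinb9 in 9 of 26 Advanced cells and 96.5 CPM (57.2 to 153) in 4 of 12 Early cells. NK-lectin T cells had 10.2 CPM (7.92 to 12.9) in 59 of 481 Advanced cells and 36.3 CPM (21.5 to 57.3) in 5 of 33 Early cells, 11 of whose 18 UMIs were in 1 cell. That ratio of 0.280 (0.165 to 0.501) became 0.637 without the leading cells. Other B cells were at 3.66 CPM (3.16 to 4.22) in Advanced and 2.74 CPM (2.33 to 3.20) in Early, 1.34-fold (1.08 to 1.66). Of the 43 UMIs in 4 ungated Advanced cells, 39 were in 1 cell.

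Srgn was found in nearly every cell and did not mark killer cells here. Other B cells had 600 CPM (594 to 607) in 5691 of 5967 Advanced cells and 603 CPM (597 to 610) in 7255 of 7630 Early cells, a ratio of 0.995 (0.980 to 1.01). Among gates with 20 or more cells in both libraries, the highest levels were in CD4 helper-gene T cells, at 899 CPM (823 to 980) in Advanced and 1020 CPM (916 to 1131) in Early, and Foxp3 T cells, at 829 CPM (786 to 873) and 921 CPM (855 to 990). Advanced CD8-type cells were among the low gates, at 266 CPM (231 to 304) in CD8 memory-gene, 271 CPM (237 to 309) in other CD8 and 312 CPM (299 to 326) in NK-lectin T cells, close to other CD4 (312 CPM) and precursor-gene T cells (308 CPM), and Early NK-lectin T cells were at 329 CPM (280 to 383). Monocytes or macrophages, at 802 CPM (764 to 840) and 778 CPM (733 to 826), differed by less than counting error between libraries.

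The number of cells behind each gene differed widely. The single highest cell held 13.5% of Advanced and 33.6% of Early Gzma UMIs, 12.1% and 29.4% of Gzmb, and 13.5% and 30.0% of Gzmk. For these 3 granzymes, 50% of the UMIs lay in 6, 8 and 6 Advanced cells and in 2 Early cells each. Gzmm needed 28 Advanced and 10 Early cells, Nkg7 204 and 12, Ctsw 197 and 14, Serpinb9 88 and 39, Prf1 154 and 69, and Srgn 1693 and 1850. Gzma, Gzmb and Gzmk levels thus describe a handful of cells in each pool, and the error between mice is unknown.

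**Figure D5:**
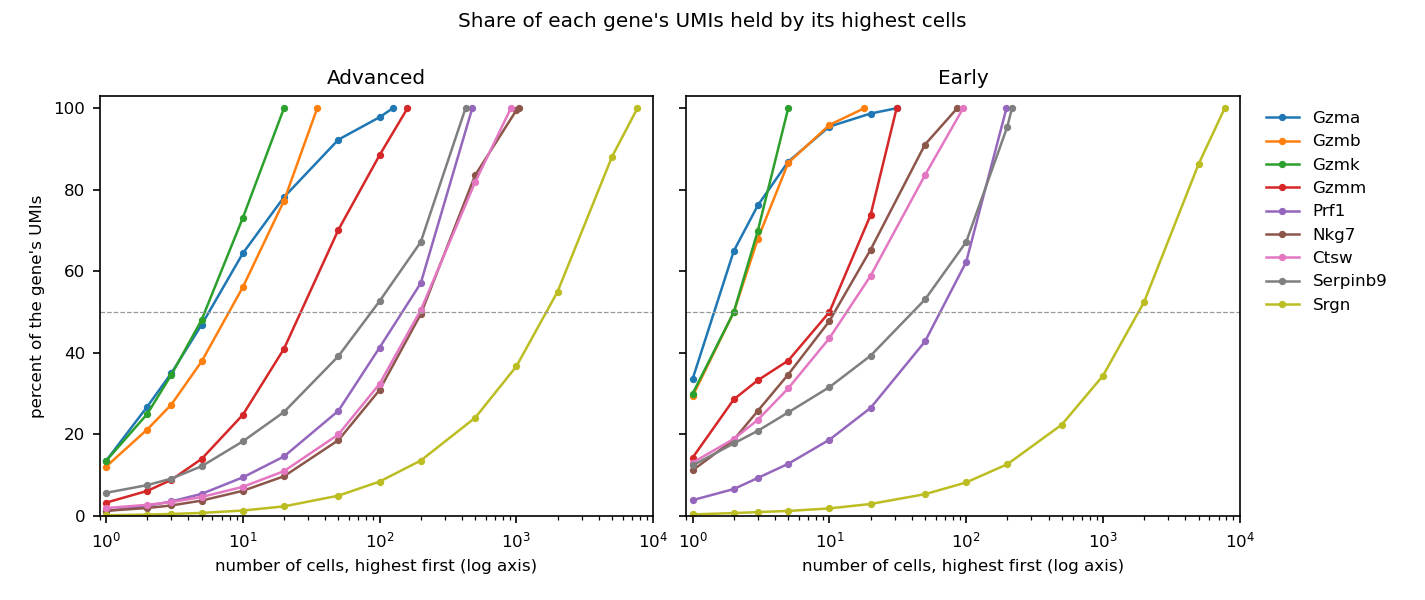
Cumulative share of each gene's UMIs (percent) against the number of cells, ranked from the highest (log axis), Advanced left and Early right, with a dashed line at 50%. Gzma, Gzmb and Gzmk reach 50% within 8 Advanced and 2 Early cells, and Srgn needs 1693 and 1850.

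Of 481 Advanced NK-lectin T cells, 262 had none of the 4 granzymes or Prf1, 168 had 1, 48 had 2 and 3 had 3 of them, and of 33 Early ones 22, 9, 2 and 0 did. Of 26 Advanced NK-gene cells 12 had none, 8 had 1, 4 had 2 and 2 had 3, and of 12 Early ones 5, 1, 2 and 4 did. Among Advanced NK-lectin T cells Prf1 was found in 41.8% of the 98 cells with Gzmm and 30.0% of the 383 without it, and all 98 had Nkg7. In the NK-gene gate, cells with Klrb1c or Ncr1 (20 of 26 Advanced, 6 of 12 Early) held every Gzma, Gzmb, Gzmk and Gzmm UMI, and the other 6 in each library held none, with 8 and 2 Nkg7 UMIs in total. With 6 cells a count of 0 does not show absence.

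Of the 32 other genes of granule processing, serpins, effectors and regulators listed for comparison, 5 were not detected in T cells. In T cells 1 was higher in Advanced and none was lower by the rule, beside 0.355% and 1.76% of all genes. That gene was Ccl5, a chemokine stored in CD8 T-cell granules, at 1738 CPM in Advanced and 267 CPM in Early T cells (6.50-fold, 6.04 to 7.01). NK-lectin T cells held 23044 of the 24699 Advanced and 683 of the 732 Early T-cell Ccl5 UMIs. Within that gate it was at 3398 CPM (3354 to 3442) in Advanced and 1377 CPM (1276 to 1484) in Early cells. Ccl5 was also a marker of the CD8 memory-gene T gate. None of the 11 granule processing and release genes was called, with ratios from Stx11 at 0.410-fold (0.307 to 0.551) to Unc13d at 1.05-fold (0.791 to 1.42). Nor was any of the 6 regulators, from Prdm1 (0.385-fold, 0.258 to 0.585) to Runx3 (1.63-fold, 1.40 to 1.91). Stx11 and Prdm1 were below 0.5-fold, but their intervals reached above it. Tbx21 was at 1.11-fold and Eomes at 0.937-fold.

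By likeness over the 29 pairs of gate and library with 20 or more cells (Pearson correlation of log2(CPM + 10), among 5488 genes), Nkg7 and Ctsw were most like Txk, a T-cell kinase (0.869 and 0.883), and Prf1 most like Crtam (0.866) and Txk (0.860). Gzmm was most like Sidt1 (0.747) and Crtam (0.724), Serpinb9 most like Serpinb6b (0.852) and Vcam1 (0.820), and Srgn most like Cnih4 (0.854). For Gzma the nearest were Bclaf1 (0.752) and Aqp11 (0.729), for Gzmb Ttc39c (0.649) and Klrg1 (0.647), and for Gzmk Itm2a (0.745) and Fam78a (0.723). The pairs share libraries and depth, and these values are descriptions.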

How the data were processed

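Each library was deposited as a matrix of raw UMI counts per gene and cell barcode, already limited by the authors to called cells. Cell Ranger 6.0.1 stands in the file headers. Versions 3.1 and 3.1.0 of it are listed by the submitters, with Seurat 4.0.3 and the mm10 build, and which version made the counts was not resolved. The counts were used as deposited, in cells with at least 200 genes, which left out 18 Advanced and 21 Early barcodes. Cells took the lineage with the largest sum of 2 or more marker UMIs, a tie or a strong second lineage made a cell mixed, and no doublet caller was run. UMIs were summed per gate and library in Python 3.11.15 with scipy 1.17.1, with exact Poisson, Clopper-Pearson and conditional binomial intervals at 95%. With 1 library per stage there is no replicate, and p-values were not computed. Shares were also taken with cells thinned to 1000 UMIs. The genes, marker lists and pathway list were chosen with earlier results of these data known. Named besides the 9 genes were the 2 genes most like each, with gate markers left out, and pathway genes past 2-fold in T cells. Alternatives were TMM factors (edgeR 4.0.16) and DESeq2 1.42.0 size factors in R 4.3.3, other totals, other cell filters, equal weight per cell, other gates and leaving out leading cells. Positions come from the GRCm38 annotation, the mm10 assembly.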

Additional observations from a re-analysis of the deposited data

Results flagged for a closer look

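Among gates with 20 or more cells in both libraries, the Advanced to Early ratio of 3 genes lay above 1 in one gate and below 1 in another, each interval excluding 1. Nkg7 was at 8.45-fold (6.33 to 11.5) in other B cells and 0.355-fold (0.164 to 0.737) in CD4 helper-gene T cells, where 20 of the 22 Early UMIs were in 1 cell. Serpinb9 was at 1.34-fold (1.08 to 1.66) in other B cells and 0.280-fold (0.165 to 0.501) in NK-lectin T cells, where 11 of the 18 Early UMIs were in 1 cell. Srgn was at 1.14-fold (1.01 to 1.28) in plasma cells and 0.850-fold (0.766 to 0.945) in plasmacytoid dendritic cells. With 1 library per stage, the difference between gates was not tested for any of them.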

How the results depend on the processing

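No paired analysis was possible because each stage has 1 library. No called ratio changed direction under any alternative run. The count of genes lower in Advanced over all cells, 1 (Gzmb), became 0 with each cell weighted equally and 0 without cells above 3 times the median UMIs. In T cells the count of genes lower, 1, became 0 without the leading cell of each gene and 0 without cells above 3 times the median UMIs, and the count of genes higher, 3, became 1 without those large cells, which left Gzmm alone (Nkg7 at 1.90-fold, Ctsw at 1.91-fold). Without those cells Gzma over all cells was at 4.68-fold. TMM and DESeq2 factors moved the all-gene median log2 ratio by -0.11 and -0.12 over all cells and by 0.23 and 0.21 in T cells, and left 3 genes higher over all cells. Without a minimum level, 698 genes were called higher over all cells in place of 120, 46 lower in place of 10, and 62 higher in T cells in place of 39. Of the ratios by gate, 453 values stayed within their main interval and 76 moved. The moves were uneven between settings. Without cells above 3 times the median UMIs 26 moved and 28 stayed. Without leading cells 15 moved and 38 stayed, and with each cell weighted equally 17 and 42. With no minimum of genes per cell, which changes few cells, 59 stayed. The revised gates were chosen after seeing the data. Cell numbers limit the Early T gates, with 33 NK-lectin T cells and 5 CD8 memory-gene T cells, and the error between mice cannot be estimated.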

Other observations

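Gzmc, a granzyme outside the 9 genes that was picked after its values were seen, was almost confined to a few NK-gene cells. Of 603 Advanced UMIs, 575 lay in 4 NK-gene cells with 448, 112, 13 and 2 UMIs, and of 164 Early UMIs, 68 lay in 2 NK-gene cells with 53 and 15 and 96 in 1 cell gated as other B. Its ratio over all cells was 2.99 (2.51 to 3.57). No NK-gene cell of either library, 0 of 26 Advanced and 0 of 12 Early, held both Gzma and Gzmc. With 7 and 4 Gzma cells, this was not tested.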
